A study of Mus musculus with 4 samples.

Results

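Mitochondrial ribosomal proteins are the nuclear-encoded proteins of the ribosome inside mitochondria. They were taken here as all genes whose spots carried a single annotated symbol beginning with Mrpl or Mrps and a digit. The annotation of the array gave 62 such genes on 69 spots, of 10698 named genes on 13738 spots. Of these, 41 genes (47 spots) were named for the large subunit and 21 genes (22 spots) for the small subunit. Both groups were mouse hippocampal CA1 tissue, whose pyramidal neurons take part in memory for places. Mice were young C57BL/6J males, an inbred strain, and every mouse was given MK-801, which blocks NMDA-type glutamate receptors. The labelled dose, 300 micrograms per g body weight, is high for mice and is repeated here as it stands in the labels. MK animals had the drug alone. MK C+S animals had it 1 h ahead of contextual fear conditioning, which paired a chamber they did not know (2 min) with a foot shock (0.5 mA for 1 s), 3 times over. Untreated mice were not among the groups. Tissue was collected 1, 2, 4 or 6 h after the last shock, with MK tissue taken at the same times. Each time has 1 array, with MK RNA in Cyanine-3 and MK C+S RNA in Cyanine-5. The sources used here do not say how many mice each RNA came from.

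The mitochondrial ribosome translates the few messenger RNAs of the mitochondrial genome, which encode core subunits of the respiratory chain and ATP synthase. Its RNAs come from the mitochondrial genome, but every one of its proteins is encoded in the nucleus, made on cytosolic ribosomes and imported. Part of the proteins have counterparts in bacterial ribosomes, and the others were added in the line leading to mammals. The large subunit forms peptide bonds and holds the exit tunnel, and the small subunit binds the messenger RNA and reads its codons. Neurons depend heavily on respiration for firing and synaptic transmission.

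The values are log ratios of the 2 dyes, read as base-10 logs, and each array was centred on the median of its measured spots. Values above 0 probably stand for more RNA in the conditioned group, by the common order of red over green, but the base and the direction are not stated. Ratios give no levels, so the labelled tissue could not be checked against its markers. In a tissue sample, fewer cells of a type and less RNA per cell cannot be told apart. The dyes were never swapped, so dye and conditioning cannot be told apart. Precision is limited by having 1 array for each time. An exact 0 was read as not measured, which left 12586, 14760, 15078 and 14650 measured spots of 16281 at 1, 2, 4 and 6 h. The middle spread was wider at 6 h, with a median absolute deviation of 0.146, against 0.100 to 0.103 at the earlier times.

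Of the 62 members, 56, 61, 60 and 62 were measured in the order of the times, and 54 had a value on all 4 arrays. Log ratios of both subunits lay mostly below 0 at 1 and 2 h and spread evenly around 0 at 4 and 6 h. At 1 h the large subunit had a median of -0.069 over 36 members, of which 27 were below 0. The small subunit had a median of -0.040 over 20 members, with 14 below 0. Of all 9162 named genes measured at that time, 49.6% lay below 0. At 2 h the large subunit had its lowest median, -0.10, with 31 of 40 members below 0, and the small subunit was at -0.058 with 16 of 21 below 0, against 50.3% of all named genes. At 4 h the medians were -0.018 and 0.0048, and 22 of 39 large and 10 of 21 small subunit members lay below 0, beside 50.2% of all named genes. At 6 h the medians were 0.015 and 0.026, with 19 of 41 and 10 of 21 members below 0, beside 51.4% of all named genes. The medians at 4 and 6 h changed side under other settings. With the running median of spots adjacent in the deposited list taken off, the small subunit was at -0.0047 and -0.015. With each spot counted on its own, the small subunit was at -0.0094 at 4 h and the large at -0.0038 at 6 h. All medians at 1 and 2 h stayed below 0 under the 7 alternatives. The medians over all named genes were 0.0013, -0.00074, -0.00095 and -0.0062 in the order of the times.

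**Figure D1:**
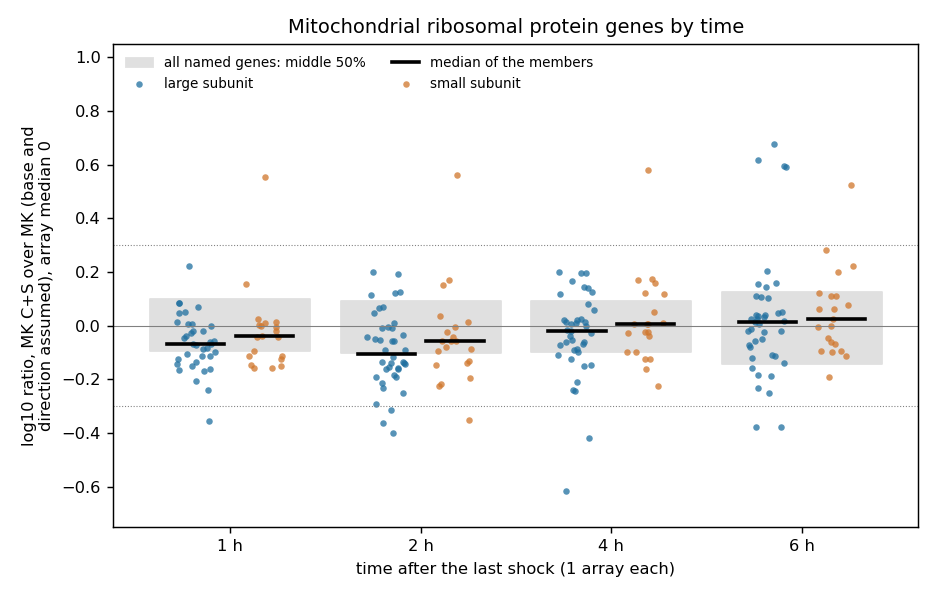
Log10 ratio (vertical axis, no unit) of every measured member at each time after the last shock (horizontal axis, 1 array per time). Blue points are large subunit genes, orange points small subunit genes, black bars the medians of the members, grey boxes the middle 50% of all named genes, and dotted lines mark 2-fold. The member medians lie below 0 at 1 and 2 h, down to -0.10 for the large subunit at 2 h, and near 0 at 4 and 6 h.

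Few members reached 2-fold, which is 0.301 on the log10 scale. At 1 h 2 of 56 did, 1 in each direction, beside 8.47% of all named genes (5.12% above and 3.35% below). At 2 h 5 of 61 did, 1 above and 4 below, beside 6.58% (2.44% above and 4.14% below). At 4 h 3 of 60 did, 1 above and 2 below, beside 7.07% (2.49% and 4.58%). At 6 h the number was 7 of 62, with 5 above and 2 below, beside 21.9% of all named genes (10.2% and 11.7%). The share of members past 2-fold was thus below that of all named genes at 1, 4 and 6 h and above it at 2 h, as a description of these arrays. The medians at 1 and 2 h thus lay below 0 while nearly all members stayed within 2-fold. At 1.5-fold the large subunit counted 4 of 36, 12 of 40, 8 of 39 and 11 of 41 in the order of the times, and the small subunit 1 of 20, 5 of 21, 2 of 21 and 5 of 21. The shares of all named genes past 1.5-fold were 25.1%, 24.2%, 23.1% and 39.9%, so that both subunits were below them at 1, 4 and 6 h, while at 2 h the large subunit was above and the small subunit close.

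The small subunit gene Mrps24 stood apart from all other members. Its protein is the counterpart of bacterial ribosomal protein S3, which sits where messenger RNA enters the small subunit. Its log ratios were 0.56, 0.56, 0.58 and 0.52 in the order of the times, a mean of 0.56 (SD 0.024, n = 4 arrays, 1 per time), or 3.59-fold if the logs are base 10. The 4 values were all past 2-fold and lay above the next highest member at 1, 2 and 4 h, while 4 large subunit members were higher at 6 h. Among the 8553 genes measured at every time it had the second highest mean, and its SD compared with a median SD of 0.125 (0.818% of these genes had an SD as low). In limma's moderated test of the mean, whose error is the variation between times, the unadjusted p was 1.3e-05 and the adjusted p over all 8553 genes was 0.0609, so Mrps24 did not pass at 0.05. With weights per array the adjusted p was 0.0396, and over all 13 alternatives it ranged from 0.0396 to 0.658 while the mean stayed between 0.55 and 0.57. Mrps24 rested on a single spot. The 50 spots numbered nearest to it had medians of 0.028, -0.011, 0.0082 and -0.071 at 1, 2, 4 and 6 h, and 4, 3, 0 and 2 of them lay 2-fold or more above 0. With the dyes never swapped, a steady dye bias of this spot cannot be told apart from a difference between the groups.

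At the other end, the lowest means belonged to the large subunit. Mrpl10, the protein that anchors the flexible stalk to which translation factors bind, was at -0.24, -0.19, -0.24 and -0.19 at 1, 2, 4 and 6 h, with a mean of -0.22 (SD 0.031, n = 4). Mrpl52, a protein with no bacterial counterpart, was at -0.14, -0.36, -0.15 and -0.23, with a mean of -0.22 (SD 0.10). Both lay below 0 on every array, and Mrpl52 passed 2-fold at 2 h alone. Mrpl17, which lies close to the exit of the peptide tunnel, was at -0.15, -0.29, -0.24 and -0.056. Mrpl53, another protein without a bacterial counterpart, was at -0.17, -0.31, -0.086 and -0.11. The means of Mrpl17 and Mrpl53 were -0.18 (SD 0.10) and -0.17 (SD 0.10), with the 2 h array the lowest for both. In the small subunit the lowest mean was that of Mrps15, which binds the ribosomal RNA directly. It was at -0.16, -0.22, -0.23 and -0.093, a mean of -0.18 (SD 0.063). In limma's test the adjusted p over all genes was 0.416 for Mrpl10 and Mrpl52 and 0.427 for Mrps15, Mrpl17 and Mrpl53.

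Promoters are shown for the member with the highest mean (Mrps24), for those with the 2 lowest (Mrpl52 and Mrpl10), for Mrpl53, another low member, which holds an ETS match on either strand, and for Mrpl39, whose SD over the arrays (0.021) was the lowest of the family. Each is the 200 bases before the annotated start, from RefSeq on build GRCm38.p6, written 5′ to 3′ on the strand of the gene. Capitals mark matches to 4 motifs searched on both strands: CCGGAAG, the core site of ETS factors such as GABPA, a palindrome of 10 letters bound by NRF1 (the capitals of the Mrpl39 stretch), AAGATGGCG, a YY1 site, and TATAAA, the TATA box. Mrps24 is on the minus strand at chr11:5707702-5707901, Mrpl52 on the plus strand at chr14:54426709-54426908, Mrpl10 on the plus strand at chr11:97041382-97041581, Mrpl53 on the plus strand at chr6:83108908-83109107 and Mrpl39 on the minus strand at chr16:84735245-84735444.
Mrps24: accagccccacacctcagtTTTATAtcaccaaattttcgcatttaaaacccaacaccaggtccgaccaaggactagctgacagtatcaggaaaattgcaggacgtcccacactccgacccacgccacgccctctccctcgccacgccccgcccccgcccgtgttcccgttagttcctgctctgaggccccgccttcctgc
Mrpl52: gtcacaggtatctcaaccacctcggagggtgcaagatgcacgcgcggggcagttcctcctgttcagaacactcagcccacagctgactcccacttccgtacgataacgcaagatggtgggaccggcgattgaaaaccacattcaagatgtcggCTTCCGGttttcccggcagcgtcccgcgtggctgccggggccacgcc
Mrpl10: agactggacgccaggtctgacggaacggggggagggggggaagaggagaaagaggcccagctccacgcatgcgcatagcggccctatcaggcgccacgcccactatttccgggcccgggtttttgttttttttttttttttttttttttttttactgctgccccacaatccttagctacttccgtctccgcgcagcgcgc
Mrpl53: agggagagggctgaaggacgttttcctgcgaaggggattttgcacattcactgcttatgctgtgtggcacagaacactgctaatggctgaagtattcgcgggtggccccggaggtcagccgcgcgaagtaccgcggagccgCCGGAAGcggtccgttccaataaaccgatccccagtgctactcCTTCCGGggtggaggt
Mrpl39: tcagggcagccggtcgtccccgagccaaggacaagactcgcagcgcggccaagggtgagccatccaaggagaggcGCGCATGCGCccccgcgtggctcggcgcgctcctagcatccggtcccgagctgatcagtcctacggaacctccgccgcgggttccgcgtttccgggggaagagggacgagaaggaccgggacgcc

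In the printed stretch of Mrps24 the only match is TATAAA on the opposite strand, its first base at -181 from the start. AAGATGGCG follows 37 bases after the start of Mrps24. Mrpl53 holds CCGGAAG on either strand, Mrpl52 holds it on the opposite strand, Mrpl39 holds the NRF1 palindrome, and the Mrpl10 stretch holds none of the 4. Promoters were found for 56 of the 62 members. In the full window of 250 bases before to 50 bases after the start, CCGGAAG was present in 20 of 56 members (35.7%), at like shares in the large (36.1%) and small (35%) subunit, against 14.7% of 8515 named genes on the array and 9.93% of the 27025 genes of the table. The NRF1 palindrome was found in 3 members (5.36%), against 1.94% of named genes and 1.07% of the table. AAGATGGCG was found in 5 (8.93%), against 2.44% and 1.64%, and TATAAA in 4 (7.14%), against 13.1% and 15.7%. The median GC content of member promoters was 58%, close to the 58.3% of named genes on the array. Log ratios with and without the motif lay close together, with no test. The 18 members with CCGGAAG and a value on all 4 arrays had a median mean of -0.045, with 14 below 0, and the 32 without it had -0.034, with 24 below 0.

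Mrpl46 and Mrps11, members of different subunits, start head to head, and the bases between their starts are shown because they belong to both promoters. The starts are 42 bases apart on chromosome 7, with Mrpl46 on the minus strand and Mrps11 on the plus strand. The 41 bases between them lie at chr7:78783090-78783130 (GRCm38.p6, plus strand).
Mrpl46 and Mrps11: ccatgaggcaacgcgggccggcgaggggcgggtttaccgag

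No motif match lies in that stretch. Mrpl46 was at -0.070, -0.14, 0.012 and -0.025 at 1, 2, 4 and 6 h, and Mrps11 at -0.0050, -0.14, -0.029 and -0.19. The pair had nearly the same value at 2 h and parted most at 6 h, where Mrps11 was lower.

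Over all members with a value on the 4 arrays, the mean was below 0 for 41 of 54, against 53.9% of the 8553 genes tested. The large subunit gave 28 of 34 below 0 with a median of -0.043, and the small subunit 13 of 20 with a median of -0.027. The median over all genes tested was -0.0095. The sign was below 0 on all 4 arrays for 16 of 54 members, 10 in the large and 6 in the small subunit, beside 11.8% of all genes. It was above 0 on all 4 arrays for 5 members (Mrps24, Mrpl9, Mrpl38, Mrps5 and Mrps25), beside 10.1% of all genes. No member passed limma's test of the mean at an adjusted p under 0.05, nor did any gene (0% of 8553). Without adjustment, 10 of 54 members had a p under 0.05, beside 11.4% of all genes. By sign these were 9 of 54 members below 0 and 1 of 54 above, beside 7.12% and 4.26% of all 8553 genes. Among the 973 genes with such a p, 609 lay below 0.

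**Figure D2:**
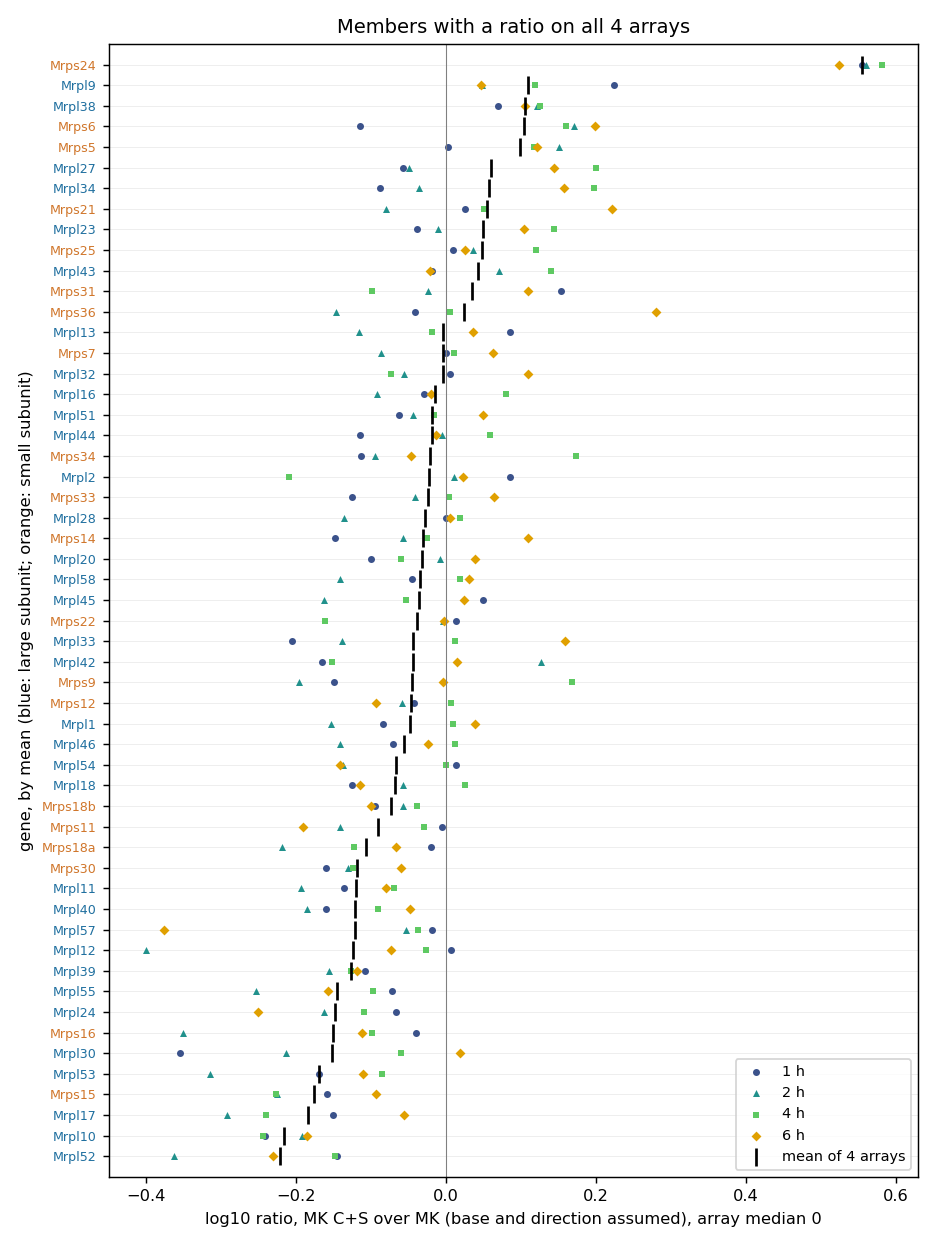
Log10 ratio (horizontal axis, no unit) of the 54 members with a value on all 4 arrays, ordered by their mean (vertical axis, gene names, blue for the large and orange for the small subunit). Symbols are the 4 times and vertical ticks the means, which run from -0.22 for Mrpl52 and Mrpl10 to 0.11 for Mrpl9, with Mrps24 apart at 0.56.

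Neighbours of Mrpl10 at the factor-binding stalk also had means below 0. So did 28 of the 34 large subunit members fitted, and the sign is not particular to the stalk. Mrpl11, at the site where translation factors hydrolyse GTP, was at -0.14, -0.19, -0.069 and -0.081, with a mean of -0.12 (SD 0.057). Mrpl12, the stalk protein itself, which also binds the mitochondrial RNA polymerase, was at 0.0062, -0.40, -0.026 and -0.073. The Mrpl12 value at 2 h was the lowest of any member at that time, and the other arrays lay close to 0. Its 2 spots gave -0.41 and -0.39 at 2 h, and the limma adjusted p of its mean was 0.551. The mean was -0.12 (SD 0.19), and -0.031 without the 2 h array. Mrpl24, at the exit of the peptide tunnel, was at -0.067, -0.16, -0.11 and -0.25, below 0 on every array.

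Mrpl4, whose protein reaches into the tunnel wall, had no ratio at 1 h and was at 0.20, 0.17 and 0.59 at 2, 4 and 6 h. Mrpl3, which approaches the catalytic centre, also lacked a 1 h ratio and was at 0.19, -0.62 and 0.20. The 4 h value was the lowest of any member on any array, with the other times on the other side of 0. Mrpl44, a protein with an RNase III-like fold, was at -0.11, -0.0049, 0.059 and -0.013, and its limma adjusted p was 0.903. Above 0 on every array in the large subunit were Mrpl9 (0.22, 0.048, 0.12 and 0.047) and Mrpl38 (0.069, 0.12, 0.13 and 0.11). The means of Mrpl9 and Mrpl38 were 0.11 (SD 0.083) and 0.11 (SD 0.025), with limma adjusted p values of 0.478 and 0.458. Among large subunit members with a value on all 4 arrays, the next highest means were those of Mrpl27 and Mrpl34, 0.060 (SD 0.13) and 0.058 (SD 0.14). Both were below 0 at 1 and 2 h and between 0.14 and 0.20 at 4 and 6 h. Without the 4 h array their means were 0.013 and 0.011.

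In the small subunit, Mrps12, the counterpart of the bacterial protein that sets decoding accuracy, was close to 0 at -0.042, -0.058, 0.0070 and -0.093. Mrps5, a neighbour of Mrps24 at the entry of the messenger RNA channel, was at 0.0022, 0.15, 0.12 and 0.12. Mrps6 was at -0.11, 0.17, 0.16 and 0.20, and Mrps21 at 0.026, -0.080, 0.051 and 0.22. Means of these members, 0.098 (Mrps5), 0.10 (Mrps6) and 0.055 (Mrps21), were the highest of the small subunit after Mrps24, and their limma adjusted p values were 0.490, 0.560 and 0.745. Without the 6 h array the mean of Mrps21 was -0.0011. Mrps16, in which mutations cause a respiratory chain deficiency in humans, was at -0.039, -0.35, -0.098 and -0.11, with a mean of -0.15 (SD 0.14), or -0.083 without the 2 h array. Mrps22, also a gene of inherited respiratory chain disease, was at 0.013, -0.0042, -0.16 and -0.0023. Like Mrpl12, Mrps16 was lowest at 2 h, while Mrps22 was away from 0 at 4 h alone. Mrps2 was not among the named spots.

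Mrps18a and Mrps30 are named for the small subunit, but structures of the mammalian ribosome place them in the large one. Mrps18a was at -0.020, -0.22, -0.12 and -0.067, and Mrps30 at -0.16, -0.13, -0.12 and -0.060. Both lay below 0 on every array, with means of -0.11 (SD 0.086) and -0.12 (SD 0.042). Mrps36, now assigned to the 2-oxoglutarate dehydrogenase complex and not to the ribosome, was at -0.041, -0.15, 0.0061 and 0.28. Mrps36 is named here after its values were seen.

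Members with and without a bacterial counterpart had medians on the same side of 0 at the early times. In the large subunit, the 16 members without a counterpart had medians of -0.070, -0.14, -0.045 and -0.023 at 1, 2, 4 and 6 h. The 25 with a counterpart were at -0.067, -0.074, 0.0077 and 0.036. In the small subunit the 9 without a counterpart were at -0.041, -0.058, -0.038 and -0.0023, and the 12 with one at -0.039, -0.069, 0.0086 and 0.069. At 4 and 6 h the medians of proteins with a counterpart were above 0 and those without one below 0, in both subunits as named by symbol. The 9 small subunit members without a counterpart include Mrps18a, Mrps30 and Mrps36, whose placing is given above. Without these, the middle values at 6 h were those of Mrps22 (-0.0023) and Mrps25 (0.026). The side of 0 at 6 h in the small subunit therefore depends on how these members are assigned. The difference between members with and without a counterpart is given with no test, and its medians were not recomputed under other settings. Mrps18a and Mrps18b, relatives of bacterial S18 that sit elsewhere in the ribosome, were counted as having no counterpart.

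Values of the same gene at early and late times were then set side by side. Averaged over 4 and 6 h, the log ratio was higher than over 1 and 2 h for 44 of 54 members, 28 of 34 in the large and 16 of 20 in the small subunit, beside 45.8% of all genes. The median difference, late minus early, was 0.067 log10 units for the large and 0.052 for the small subunit, against -0.017 for all genes. Shares were larger against 2 h than against 1 h: 45 of 60 members were higher at 4 h than at 2 h, and 44 of 61 were higher at 6 h than at 2 h, against 34 of 54 and 35 of 56 in the comparisons with 1 h. All 4 of these shares exceeded those of all named genes, which lay between 45.8% and 50.3%. The running median of 51 spots adjacent in the deposited list was also taken off, without using their places on the slide. Then 41 of 54 members were higher late, 28 of 34 in the large and 13 of 20 in the small subunit. The median difference of the small subunit was then 0.029.

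The slope of the log ratio on hours was above 0 for 42 of 54 members, beside 46.1% of all genes, with a median of 0.015 log10 units per h. In limma's test of the slope 0% of the 8553 genes passed at an adjusted p under 0.05, members included. Without adjustment, 2 members had a p under 0.05, beside 14.6% of all genes. These were Mrpl33 and Mrpl30, both of the large subunit. Mrpl33 ran from -0.21 and -0.14 at 1 and 2 h to 0.013 and 0.16 at 4 and 6 h, with a slope of 0.074 per h (SE 0.026, limma adjusted p = 0.257). Mrpl30 ran from -0.35 and -0.21 to -0.059 and 0.019, with a slope of 0.073 per h (SE 0.027, adjusted p = 0.278). Both genes are named after their values were seen. Among the 54 members fitted, the lowest slope belonged to Mrpl57, which was at -0.019, -0.053, -0.038 and -0.38, a slope of -0.065 per h (SE 0.031, limma adjusted p = 0.398), with the 6 h value far below the others. Mrpl35, which had no 4 h ratio and was not fitted, was at 0.048, -0.090 and -0.38 at 1, 2 and 6 h.

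**Figure D3:**
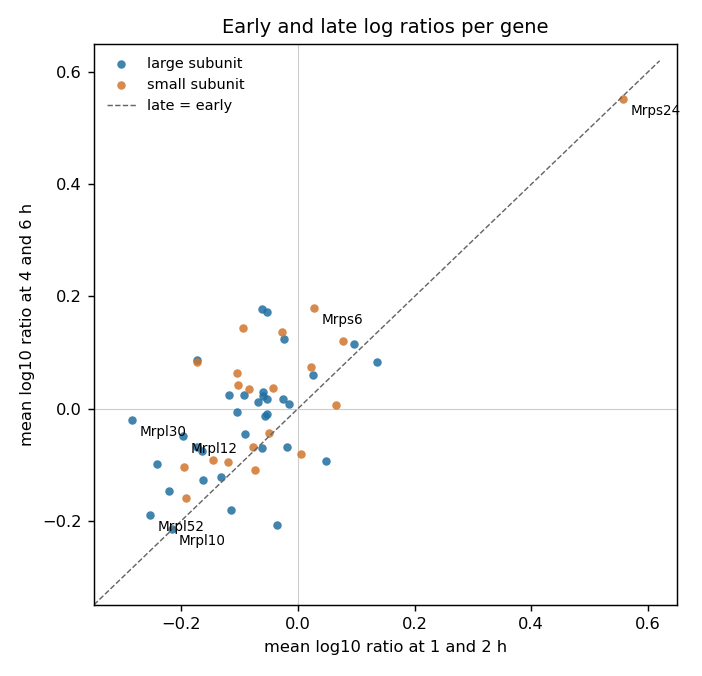
Mean log10 ratio at 4 and 6 h (vertical axis) against the mean at 1 and 2 h (horizontal axis) for the 54 members with a value on all 4 arrays, blue for the large and orange for the small subunit. The dashed line marks equal values, and 44 of the 54 points lie above it, with Mrps24 on the line at the upper right.

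Cytosolic ribosomal and respiratory genes were also mostly higher late, while smaller lists of mitochondrial genes went both ways. Cytosolic ribosomal protein genes were higher late in 34 of 40, with a median difference of 0.13, and genes of the respiratory chain and ATP synthase in 38 of 53, with 0.12, against 45.8% of all genes. Mitochondrial tRNA synthetases were higher late in 1 of 5 (median -0.054), translation factors of mitochondria in 1 of 3 (-0.18) and genes of mitochondrial transcription and genome upkeep in 3 of 8 (-0.014). Ribosome assembly and RNA modification genes were higher late in 7 of 10 (0.059), and ribosomal proteins with other names in 2 of 3 (0.0077). Medians of the cytosolic and respiratory groups at 4 h were 0.074 and 0.058, against -0.017 for all mitochondrial ribosomal members. At 2 h these 3 groups lay close together, at -0.067, -0.073 and -0.087. At 1 h all 3 were below 0 as well, at -0.076, -0.035 and -0.060 in the same order. Members of these groups below 0 at 1 h were 33 of 45, 37 of 59 and 41 of 56. The difference between these groups was not tested. For Mrps24 the late minus early difference was -0.0051.

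The arrays ordered the members alike to some degree. Across the 54 members, Spearman's rho between arrays ran from 0.27 (1 and 4 h, and 1 and 6 h) to 0.57 (2 and 6 h), and from 0.22 to 0.54 without Mrps24. Across all 8553 genes it ran from -0.020 to 0.33. These are correlations across genes, which are not independent replicates, and the arrays share dye orientation and spot layout.

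Spots of the same gene give a check within each array, although they share its RNA. Of 7 members with 2 spots, 6 had both measured on at least 3 arrays, and the second spot of Mrpl1 was never measured. The median difference between spots of a member was 0.042 log10 units over 23 pairs, against 0.154 over 11753 pairs from all 2640 genes with such pairs, given as a description with no test. The sign was shared in 14 of the 23 member pairs (60.9%), against 53.2% of pairs over all genes. Spots of Mrpl58, a peptide release factor built into the ribosome, were at -0.039, -0.13, 0.0077 and 0.020 and at -0.051, -0.15, 0.031 and 0.041. Both curves dipped at 2 h and stayed close at the other times. Those of Mrpl39 were at -0.030, -0.16, -0.11 and -0.11 and at -0.19, -0.15, -0.15 and -0.13, below 0 on every array. For Mrpl24 they were at -0.074, -0.16, -0.16 and -0.38 and at -0.059, -0.16, -0.057 and -0.13, so that both stayed below 0 and parted at 6 h.

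**Figure D4:**
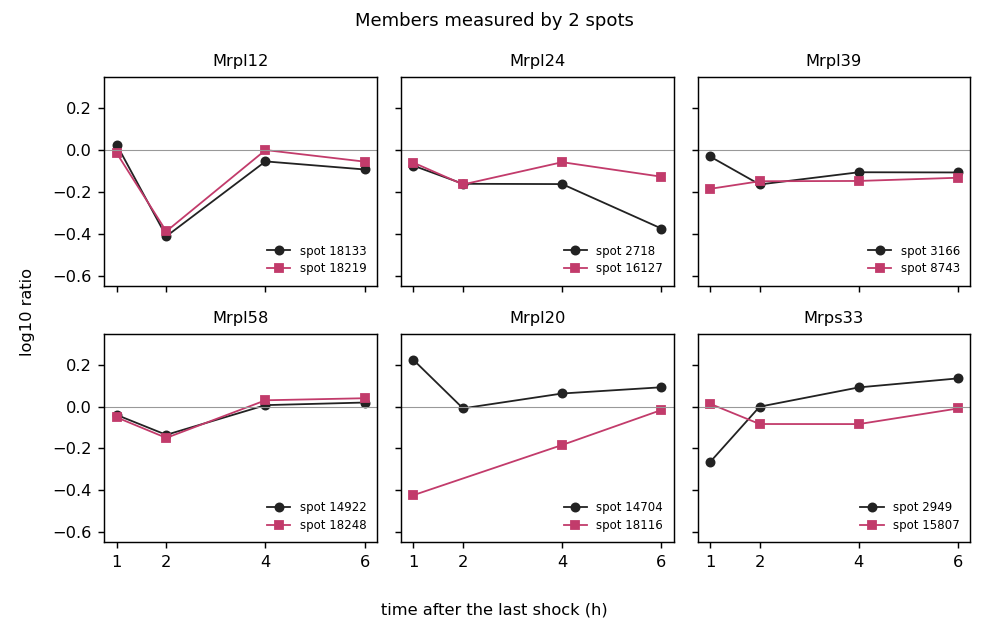
Log10 ratio (vertical axis) by time after the last shock in h (horizontal axis) for the 6 members with 2 measured spots, black circles and red squares for the spots of a gene. The curves of Mrpl12 and Mrpl58 follow each other, and those of Mrpl20 and Mrps33 lie on opposite sides of 0 wherever both were measured.

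Mrpl20 and Mrps33 showed the reverse. Spots of Mrpl20 were at 0.22, -0.0077, 0.063 and 0.093 and, with no 2 h ratio, at -0.42, -0.18 and -0.016, with opposite signs at 1, 4 and 6 h. Spots of Mrps33 were at -0.27, 0.00025, 0.093 and 0.14 and at 0.014, -0.083, -0.083 and -0.0083, with opposite signs at every time. The spots of Mrps33 carry the same sequence accession in the annotation, and those of Mrpl20 different ones. Values of Mrpl20 and Mrps33 averaged over spots are therefore uncertain. The other 55 of the 62 members had a single spot. Over all genes, spots of the same gene shared a sign in only 53.2% of pairs, with a median difference of 0.154. The size and sign of a member with a single spot are therefore uncertain too.

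Members without a ratio at 1 h often had large values at 6 h. There were 6 of them, and 3 passed 2-fold at 6 h, all above 0: Mrpl4 at 0.59, Mrpl19 at 0.62 and Mrpl49 at 0.59. Of the 56 members with a 1 h ratio, 4 passed 2-fold at 6 h. The same split over all named genes gave 42% of 1290 genes without a 1 h ratio past 2-fold at 6 h, 466 above 0 and 76 below, against 18.9% of 8812 with one, 562 above and 1107 below. The highest member at 6 h, Mrpl21 at 0.68, had no ratio at 2 and 4 h and was at -0.11 at 1 h. Signal intensities were not used here, and the part of the missing ratios in these values was not tested. Mrpl19, Mrpl49 and Mrpl21 are named after their values were seen, Mrpl49 also for passing 2-fold at 2 times.

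Further lists of mitochondrial gene expression had few genes on the array. Of 13 translation factor genes 3 were there, of 17 mitochondrial tRNA synthetases 6, of 29 assembly and RNA modification genes 11, of 24 genes of mitochondrial transcription and genome upkeep 11, and of 7 ribosomal proteins with other names 3. Medians at 2 h were 0.12, 0.054, -0.0035, 0.0079 and -0.056 in that order, so that 2 of the 5 lay below 0, with no test. Of the 29 genes of these lists with a value on all 4 arrays, limma called none in the mean or the slope after adjustment. Without adjustment 1 of 29 was under 0.05 in the mean (3.45%, beside 11.4% of all genes) and 2 of 29 in the slope (6.9%, beside 14.6%). The 1 in the mean was Pdf, with a limma adjusted p of 0.434. The peptide deformylase gene Pdf was at 0.074, 0.12, 0.33 and 0.092 and the recycling factor gene Mrrf at 0.18, 0.15, -0.13 and 0.050. Among the synthetases, Sars2 had no 1 h ratio and was at 0.23, 0.12 and 0.72, and Wars2 was at 0.032, 0.31, 0.10 and 0.13. The RNA-binding protein gene Ptcd1 was at 0.082, -0.67 and -0.82 with no 6 h ratio, and Polg2, an accessory subunit of the mitochondrial DNA polymerase, at -0.14, -0.028 and -0.27 from 2 h on. The ribosomal RNA methyltransferase gene Nsun4 was at 0.035, -0.22, -0.068 and 0.72, and the helicase gene Dhx30, which takes part in assembly, at 0.027, 0.17, 0.13 and 0.091. The small subunit genes Ptcd3 (-0.024, 0.034, -0.13 and -0.20) and Dap3 (-0.034, -0.056, -0.028 and 0.089) stayed within 2-fold.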

How the data were processed

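Values deposited by the authors are log ratios of the 2 dyes for each spot of 4 arrays, read here as log10. The sources used here do not state the base, the direction, the scanner or how the authors corrected and normalized the values. Each deposited column has a median of 0 with exact zeros counted in, and values run from -3.10 to 1.58. Exact zeros (22.7%, 9.34%, 7.39% and 10% of spots) were taken as not measured, and the median of the other spots of each array was subtracted. Spots were named by GEO's platform annotation. Entrez identifiers of all 69 member spots matched RefSeq with the same symbol (GRCm38.p6). Measured spots of a gene were averaged.

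Limma (version 3.58.1, with R 4.3.3 and statmod 1.5.0) gave two-sided tests of the mean over the arrays and of the slope on hours (lmFit, eBayes). P-values were adjusted by Benjamini-Hochberg over the 8553 genes measured at every time. The fits were also run on simulated data with independent errors and changes larger than the mean or slope of any member fitted. That run does not show the power at the sizes seen here. For the real arrays the error is the spread between times, which holds any true change with time. Values at a single time were counted at 2-fold, with no test. The text names, by rule, the 4 highest and 4 lowest means of each subunit among members with a value on all 4 arrays, members past 2-fold on 2 or more arrays, members with 2 spots, 10 members of known role and, from each further list of mitochondrial genes, the 2 with the largest absolute mean, over however many arrays measured them. Others named follow a highest or lowest value, a shared promoter, subunit assignment or missing ratio, and were named after their values were seen. Members and lists were chosen with earlier results of these data known. The lists of cytosolic ribosomal and respiratory genes were set from their symbols afterwards. Alternatives are given in the closing section.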

Additional observations from a re-analysis of the deposited data

Results flagged for a closer look

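Mrpl49, a large subunit gene without a bacterial counterpart, passed 2-fold in opposite directions at different times. It was at 0.59 at 6 h and -0.42 at 4 h, with -0.23 at 2 h and no ratio at 1 h. The gene has a single spot, each time has a single array, and the difference between the times was not tested.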

How the results depend on the processing

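The medians of both subunits moved within their 95% binomial intervals in all 56 alternatives. This is a weak criterion, because the intervals treat members of 1 array as independent and are wide. For the small subunit at 4 h the interval ran from -0.098 to 0.12. Over the alternatives the small subunit at 6 h ran from -0.015 (running median removed) to 0.063 (Mrps18a and Mrps30 moved to the large subunit). As given above, 4 medians at 4 and 6 h changed side. Counts past 2-fold were within 1.5 times the main count in 53 of 80. With base-2 or natural logs 0 members passed at any time in either subunit. At 1.5-fold the large subunit gave 4, 12, 8 and 11 at 1, 2, 4 and 6 h, and the small subunit 5, 2 and 5 at 2, 4 and 6 h, beside 25.1%, 24.2%, 23.1% and 39.9% of all named genes at 1, 2, 4 and 6 h. With the running median removed, the large subunit gave 0 and 1 at 1 and 2 h and the small subunit 2 at 6 h. With each spot on its own, the large subunit gave 2 at 1 h. The share of all named genes past 2-fold was not counted for the other log bases, the running median or single spots. These member counts therefore have no background beside them. In limma's mean, weights per array called 2 genes, 1 of them a member (Mrps24, mean 0.56, adjusted p 0.0396), and 1 gene outside the family passed among genes with 3 or more values. Without single arrays 0 to 1 genes were called in the mean, with 0 members, and 0 to 418 in the slope, the 418 without the 4 h array and 0 of them members. The cause was not tested. Means close to 0 changed sign. With the running median removed they were 0.013 for Mrpl20, 0.017 for Mrpl44 and 0.045 for Mrpl58. By single spots they were 0.093 for Mrpl20 and 0.0093 for Dap3. Over the fits without 1 array each, means ran from -0.040 to 0.0087 for Dap3 (0.0014 without 1 h and 0.0087 without 2 h), from -0.044 to 0.014 for Mrpl44 (above 0 without 1 h), from -0.056 to 0.0015 for Mrpl58 (without 2 h), from -0.054 to 0.0091 for Mrps33 (without 1 h) and from -0.056 to 0.0022 for Mrps22 (without 4 h). They ran from -0.0011 to 0.0996 for Mrps21 and from -0.084 to 0.23 for Nsun4, both below 0 without 6 h. The other 434 of 448 alternatives for means of named genes, apart from Mrps24 with array weights, kept their sign and side of the threshold. Each ratio sets MK C+S against MK tissue of the same time on 1 array, so the groups were compared within arrays. No further pairing was possible because each time has 1 array and the labels carry no replicate numbers. Without intensities, signal over background was not examined.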
